A study of Mus musculus with 24 samples.

Results

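The 26S proteasome genes were followed here through H3K9ac, acetylation of lysine 9 of histone H3, at their promoters in 4T1 breast cancer spheroids. Members were all protein-coding mouse genes of the GENCODE vM21 annotation whose symbol is Psm, a letter from a to g and a digit. The rule gave 50 genes of 21755 protein-coding genes. They code for the rings of the catalytic core, the ATPases and other subunits of the cap, the chaperones that put these together, and activators or inhibitors of the core. A pair of symbols match the rule without belonging to the complex as named here: Psmc3ip, a partner of a cap ATPase that is known for its part in meiotic recombination, and Psme2b, a gene whose symbol marks it as a copy of Psme2.

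The proteasome degrades proteins that carry a chain of ubiquitin. The 19S cap binds and unfolds them with a ring of ATPases and feeds them into the 20S core, a barrel of alpha rings around beta rings, where the beta subunits cut. Interferon and other inflammatory signals are known to exchange the cutting subunits for inducible forms, Psmb8, Psmb9 and Psmb10, which favor the making of peptides for MHC class I. H3K9ac marks active promoters, and KAT2a is among the acetyltransferases known to place it.

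The cells are 4T1, a mouse mammary carcinoma line, grown as spheroids for 5 days. H3K9ac was measured by ChIPmentation, in which the transposase Tn5 adds sequencing adapters to chromatin while it is held on the antibody beads. Peak lists of 12 libraries were used, 3 per group: scramble control cells, CPT1a knockout cells and KAT2a knockout cells, each in medium with 75 µM palmitate, and CPT1a knockout cells in medium with 5 mM acetate. All lines carried a doxycycline-inducible Cas9 and a guide RNA delivered by lentivirus and were kept under puromycin selection. The control guide was directed against EGFP. The knockout lines were made with guides against Cpt1a, which codes for the enzyme that admits palmitate to mitochondria, or against Kat2a, and nothing in the labels ties a library to a given guide. The labels also do not say whether palmitate was present in the acetate group, although the study's own legend for that comparison has it present. The labels do not say that replicates came from separate cultures, and the study speaks of biological replicates only in general, so the p-values measure the spread between these libraries, which may be technical.

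The lists held 16201 to 34330 peaks on chromosomes 1 to 19 and X. The calling depth, the mean read coverage at which a list was called and which was recovered from the peak values, was 2.516, 1.871 and 1.9 in scramble, 1.703, 1.557 and 0.554 in CPT1a knockout, 1.455, 0.66 and 1.909 in CPT1a knockout with acetate, and 1.673, 1.815 and 1.022 in KAT2a knockout. Scramble replicate 1 was the deepest list and CPT1a knockout replicate 3 the shallowest, and the 3 scramble lists were deeper than all but 1 of the other 9. Of the epithelial marker genes, 7 of 7 had a promoter peak in all 12 libraries, whereas the immune genes Ptprc, Cd3e and Csf1r and the endothelial genes Pecam1 and Cdh5 had none in any. Of 3 fibroblast genes, Pdgfra had a promoter peak in 12 libraries, Col1a1 in 11 and Dcn in 0. A peak list cannot show whether Cpt1a or Kat2a was cut, so the genotypes rest on the labels.

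H3K9ac covered the proteasome promoters in every group. A promoter was the window within 1 kb of a transcription start site (TSS), and 47 of the 50 genes (94%) had a peak there in all 12 libraries, against 10777 of the 21755 protein-coding genes (49.5%). The remaining 3 genes had a promoter peak in 0 of 12 libraries, which makes 0 genes that differed in call between libraries. These 3 were Psma8, the testis form of an alpha subunit, Psmb11, the cutting subunit of the thymus, and Psme2b. No peak was called at the promoters of Psmb11 and Psma8, while their constitutive counterparts in the core, Psmb5 and Psma7, carried one in each library. Among other gene families of large complexes, 91 of 102 cytosolic ribosomal protein genes (89.2%) and 78 of 78 mitochondrial ones had a peak in all 12 libraries. In these lists the groups therefore did not differ in which proteasome promoters had a peak.

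The promoters differed in strength by role. The strength of a promoter is given as the rank percentile of the fold enrichment of its best peak among the 10777 genes in the same library, where 100 is the strongest. Fold enrichment is the summit coverage over the local background, so a rank depends on both. The median rank of the 47 genes was 55.8, 74.5 and 70.7 in the scramble libraries, 66.7, 66.3 and 62.0 in CPT1a knockout, 71.6, 74.6 and 73.9 in CPT1a knockout with acetate, and 72.5, 65.3 and 70.7 in KAT2a knockout. All 12 values lay above 50, the median of all genes that the ranking fixes. The cytosolic ribosomal protein genes stood at 72.9 to 93.0 and the mitochondrial ones at 44.5 to 54.4 over the same libraries. In a bulk library, fewer cells with an acetylated promoter and less acetylation per cell cannot be told apart.

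**Figure D1:**
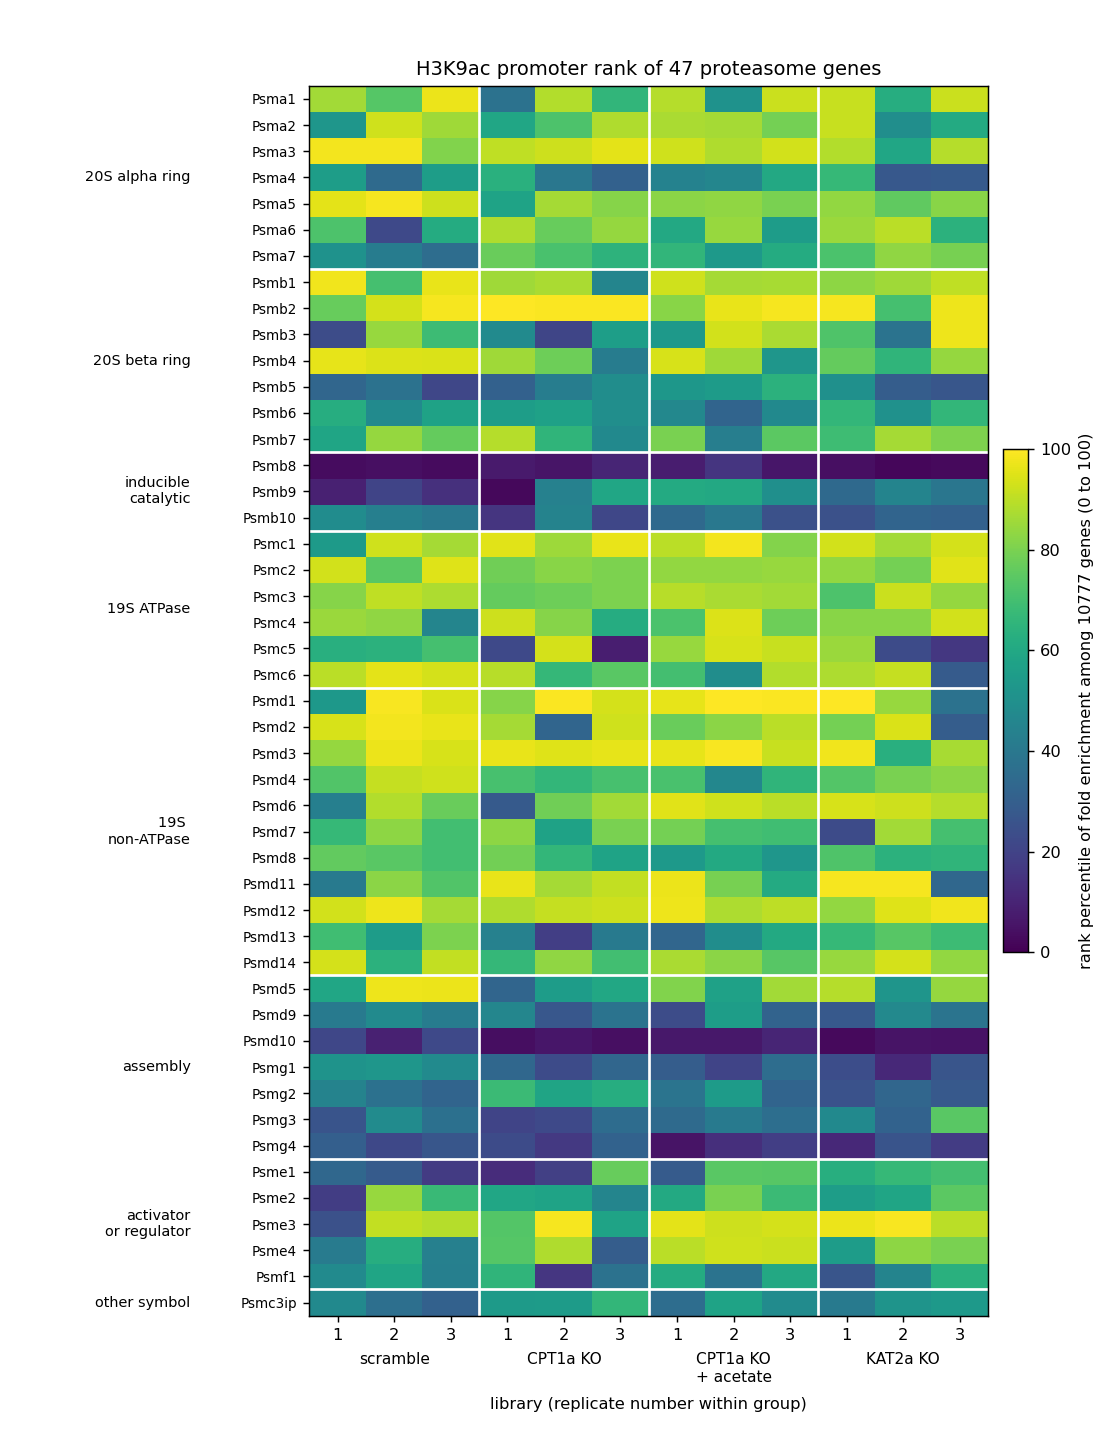
Rank percentile of promoter fold enrichment for the 47 genes that had a peak in each library (rows, grouped by role) in each of the 12 libraries (columns, 3 replicates per group); 100 is the strongest of 10777 genes. The core and cap rows are mostly bright, most assembly rows are darker, with Psmd5 an exception, and the rows of Psmb8 and Psmd10 are dark in every group.

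Averaged over libraries, the median member rank was 84.8 for the 6 cap ATPases, 81.6 for the 11 other cap subunits, 76.7 for the 7 alpha genes and 73.8 for the 7 constitutive beta genes. The SD over the 12 libraries of these role medians was 3.40, 6.10, 7.53 and 11.4, and of these the ATPase and alpha genes differed by more than either SD while neighbors in this order differed by less. The activators and regulators stood at 60.1 ± 13.8, the assembly factors at 33.7 ± 7.26 and the 3 inducible catalytic genes at 25.2 ± 11.6 (SD over 12 libraries). The assembly and inducible genes lay below the core and cap genes by more than these spreads, and their own ranges overlapped. By rank of summit pileup, which leaves out the local background and is described below, the inducible genes stood higher, at 49.0 ± 16.7, and the assembly factors at 27.7 ± 9.22. Within groups, the median of the inducible genes was 14.5 ± 5.69 in scramble and 33.1 ± 7.87 with acetate by fold enrichment. By pileup it was 24.0 ± 4.15 and 65.6 ± 4.13 (SD, n = 3 each). These medians fell on different genes, on Psmb9 in scramble and on Psmb10 with acetate, so they do not show a shift of the set. Psmb10 itself had a mean pileup rank of 65.0 in scramble and 65.6 with acetate (limma, adjusted p = 0.943). By fold enrichment its mean was lower with acetate than in scramble, with values given below. The levels are given as a description over 4 conditions. Ranks are relative within a library, so a change in total H3K9ac was not measured.

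The strongest promoters belonged to a constitutive beta gene and to cap genes. Psmb2, a noncatalytic beta subunit, ranked at 76.8, 93.4 and 98.6 in scramble, 99.8, 99.2 and 99.2 in CPT1a knockout, 82.4, 96.7 and 98.6 with acetate, and 98.8, 70.3 and 97.5 in KAT2a knockout. Psmd12, a subunit of the lid of the cap, ranked at 93.3, 97.6 and 86.4, at 88.1, 91.3 and 92.4, at 97.6, 87.5 and 90.2, and at 84.0, 95.0 and 97.7 in the same order of groups. Psmd3, another subunit of the lid, ranked at 84.4, 97.2 and 93.9, at 96.6, 94.9 and 96.3, at 96.3, 99.0 and 91.8, and at 98.0, 63.0 and 86.9. The groups overlapped for Psmd12 and Psmd3, and none of these 3 genes passed the test in any comparison of ranks of fold enrichment.

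The weakest promoters with a peak in every library were Psmb8, Psmd10 and Psmg4. Psmb8, the inducible form of the chymotrypsin-like subunit, ranked at 3.33, 4.03 and 3.05 in scramble, 7.35, 5.77 and 10.2 in CPT1a knockout, 7.93, 15.3 and 6.19 with acetate, and 4.12, 1.82 and 2.51 in KAT2a knockout. Its scramble values lay below all 6 CPT1a knockout values with and without acetate, and inside the KAT2a knockout range. Psmg4, a chaperone of the alpha ring, ranked at 30.3, 21.7 and 26.8, at 22.9, 16.5 and 31.5, at 5.44, 13.3 and 18.6, and at 11.4, 26.1 and 17.7 in the same order. The groups of Psmg4 overlapped except for acetate against scramble, a difference that did not pass the test.

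The peaks sat close behind the start sites. The median summit lay downstream of the TSS for 39 of 47 genes and upstream for 8, at a median of 265 bp, and within 500 bp for 43. The farthest were Psmc2 at 1781.5 bp and Psme2 at -1199.5 bp. For 13 of the 47 genes the start site of another protein-coding gene on the opposite strand lay within 1 kb, among them Tap1 next to Psmb9, Tbp next to Psmb1, Mrpl32 next to Psma2, Sirt3 next to Psmd13 and Atg4a next to Psmd10. For 1 gene, Psmg3, a neighbor on the same strand did. A promoter peak at these genes cannot be assigned to either partner.

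The promoters of the 4 genes whose rank of fold enrichment passed a test are shown, from 250 bases before the start site to 50 after, as RefSeq gives them on GRCm38.p6 (mm10) and on the strand of the gene. Capitals mark matches, on either strand, to the 7 motifs that were searched.
Psma7, an alpha subunit, chr2:180042415-180042714, minus strand: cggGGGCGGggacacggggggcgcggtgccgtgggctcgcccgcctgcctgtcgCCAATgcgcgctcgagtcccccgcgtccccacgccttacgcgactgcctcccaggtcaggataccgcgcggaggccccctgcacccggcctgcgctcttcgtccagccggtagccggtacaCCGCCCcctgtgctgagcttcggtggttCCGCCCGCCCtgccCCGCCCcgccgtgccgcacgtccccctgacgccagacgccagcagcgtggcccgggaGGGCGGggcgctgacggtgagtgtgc
Psmb9, an inducible catalytic subunit, chr17:34187281-34187580, minus strand: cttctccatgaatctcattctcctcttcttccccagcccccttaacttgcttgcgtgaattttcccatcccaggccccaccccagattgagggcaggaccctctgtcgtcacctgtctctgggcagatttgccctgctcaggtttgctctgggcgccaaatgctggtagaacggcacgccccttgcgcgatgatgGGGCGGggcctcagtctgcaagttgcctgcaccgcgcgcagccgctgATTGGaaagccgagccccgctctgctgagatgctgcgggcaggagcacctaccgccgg
Psmg1, a chaperone of the alpha ring, chr16:95990911-95991210, minus strand: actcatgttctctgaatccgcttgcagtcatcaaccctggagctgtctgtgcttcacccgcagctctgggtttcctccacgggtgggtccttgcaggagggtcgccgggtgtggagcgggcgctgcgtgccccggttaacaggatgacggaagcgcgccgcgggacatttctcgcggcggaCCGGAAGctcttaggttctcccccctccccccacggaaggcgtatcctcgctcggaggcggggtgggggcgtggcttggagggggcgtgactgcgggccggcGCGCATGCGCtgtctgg
Psmd10, a chaperone of the cap ATPases, chrX:140956662-140956961, minus strand: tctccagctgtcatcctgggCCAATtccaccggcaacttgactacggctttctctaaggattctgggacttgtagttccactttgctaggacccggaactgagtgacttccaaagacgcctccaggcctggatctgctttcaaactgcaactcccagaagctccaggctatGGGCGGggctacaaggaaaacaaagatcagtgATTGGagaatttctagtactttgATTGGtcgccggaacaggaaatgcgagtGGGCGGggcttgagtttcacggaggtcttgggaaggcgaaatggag
The Psma7 window is the richest in G and C of the 4, at 77%, and that of Psmd10 the poorest at 52.3%, with Psmb9 at 62% and Psmg1 at 67.7%.

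The motifs were the letters TGACNNNGC (the antioxidant response element, which Nfe2l1 and Nfe2l2 bind), CCAAT, the NRF1 motif (the site of the respiratory factor), CCGGAAG (the ETS core), GGGCGG (the GC box), CACGTG (the E-box) and TATAAA, each read on both strands, and matches may overlap. Promoter sequences were at hand for 42 of the 50 genes and for 16433 genes in all, of which 8517 had a peak in every library. CCGGAAG stood in 14 of the 42 proteasome promoters (33.3%), in 12.3% of all promoters and in 20.8% of those with a peak in every library. The NRF1 motif stood in 7 of 42 (16.7%), against 6.88% and 11.9%. The antioxidant response element was found in 6 of 42 (14.3%), against 13.3% and 15.1%, and CCAAT in 15 of 42 (35.7%), against 38.8% and 39.7%. The GC box stood in 54.8%, against 48.3% and 68.2%, the E-box in 9.52%, against 8.15% and 10.6%, and TATAAA in 9.52%, against 12.8% and 5.99%. Psmd10 holds 3 copies of CCAAT and 2 GC boxes, Psma7 holds 6 GC boxes and 1 CCAAT, Psmb9 1 of each, and Psmg1 1 NRF1 motif and 1 ETS core. These matches describe letters within the window only.

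The comparison of CPT1a knockout with scramble asks whether the loss of fatty acid entry into mitochondria changes H3K9ac. Ranks of fold enrichment were compared with limma over the 10777 genes, with Benjamini-Hochberg adjustment over all of them and a threshold of 0.05. Of the 47 proteasome genes, 1 was lower and 0 were higher in CPT1a knockout, where 5.24% of all genes were lower and 4.77% higher. The gene was Psmd10, the chaperone also known as gankyrin. It ranked at 21.2, 9.14 and 21.9 in scramble and at 3.53, 5.93 and 4.29 in CPT1a knockout, so the groups did not overlap. The rank fell by 12.8 percentile points (SE 3.15, adjusted p = 0.0209), from 17.4 ± 7.17 to 4.58 ± 1.23 (SD, n = 3 each). The call was lost without scramble replicate 1 (adjusted p = 0.0762) or 3 (0.0759) and without CPT1a knockout replicate 1 (0.0566) or 3 (0.0556), and the adjusted p over all alternatives ranged from 0.00272 to 0.758. With the trend on GC content removed, the difference turned to 2.49 (adjusted p = 0.758).

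The median difference of the 47 genes was -4.04 percentile points, and that of all genes was 0.22. The groups did not overlap for 9 genes that were lower (19.1%) and 7 that were higher (14.9%), against 15.3% and 15.5% of all genes. By role, 0 of 7 alpha, 0 of 7 beta, 0 of 6 ATPase, 0 of 11 other cap, 1 of 7 assembly and 0 of 5 activator or regulator genes passed the test. At an unadjusted p under 0.05 there were 9 of 47 proteasome genes and 27.1% of all genes.

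Loss of KAT2a was compared with the same 3 scramble libraries. Of the 47 genes, 2 were lower and 1 was higher, where 2.71% of all genes were lower and 1.7% higher. Psmg1 ranked at 51.4, 52.4 and 47.8 in scramble and at 23.5, 11.6 and 26.5 in KAT2a knockout, without overlap. It fell by 30.0 points (SE 7.17, adjusted p = 0.0308), from 50.5 ± 2.43 to 20.5 ± 7.89. Its values in CPT1a knockout were 33.2, 22.8 and 33.2, and with acetate 29.4, 20.5 and 35.7, so the 3 scramble values lay above those of all 9 other libraries, as for 8.12% of all genes.

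Psmd10 ranked at 2.5, 5.14 and 5.05 in KAT2a knockout, below the 3 scramble values given above. It fell by 13.2 points (SE 3.15, adjusted p = 0.0308). Its acetate values were 6.45, 6.32 and 10.4, of which the highest exceeded the lowest scramble value of 9.14.

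Psma7, the alpha subunit next to Ss18l1, was the gene that rose. It ranked at 51.1, 41.9 and 35.7 in scramble and at 71.7, 83.5 and 79.4 in KAT2a knockout, a rise of 35.3 points (SE 9.39, adjusted p = 0.0455) from 42.9 ± 7.76 to 78.2 ± 6.01. It stood at 77.3, 71.1 and 64.5 in CPT1a knockout and at 65.8, 54.0 and 61.6 with acetate. The scramble values lay below all 9 others, which held for 1 of the 47 genes and for 4.51% of all genes.

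These KAT2a calls were at the edge of the threshold. Leaving out 1 of the 12 libraries kept the call of Psmd10 in 7 of 12 fits, that of Psmg1 in 6 and that of Psma7 in 2. No gene was called without any of the 3 KAT2a knockout libraries or without scramble replicate 1 or 3, and 1 was called without scramble replicate 2. With the GC trend removed none of the 3 passed, at adjusted p = 0.992 for Psmd10, 0.0514 for Psmg1 and 0.126 for Psma7. The groups did not overlap for 5 genes that were lower and 4 that were higher (10.6% and 8.51%), against 15% and 14.3% of all genes, and the median difference of the 47 genes was -2.11 against 0.10.

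**Figure D2:**
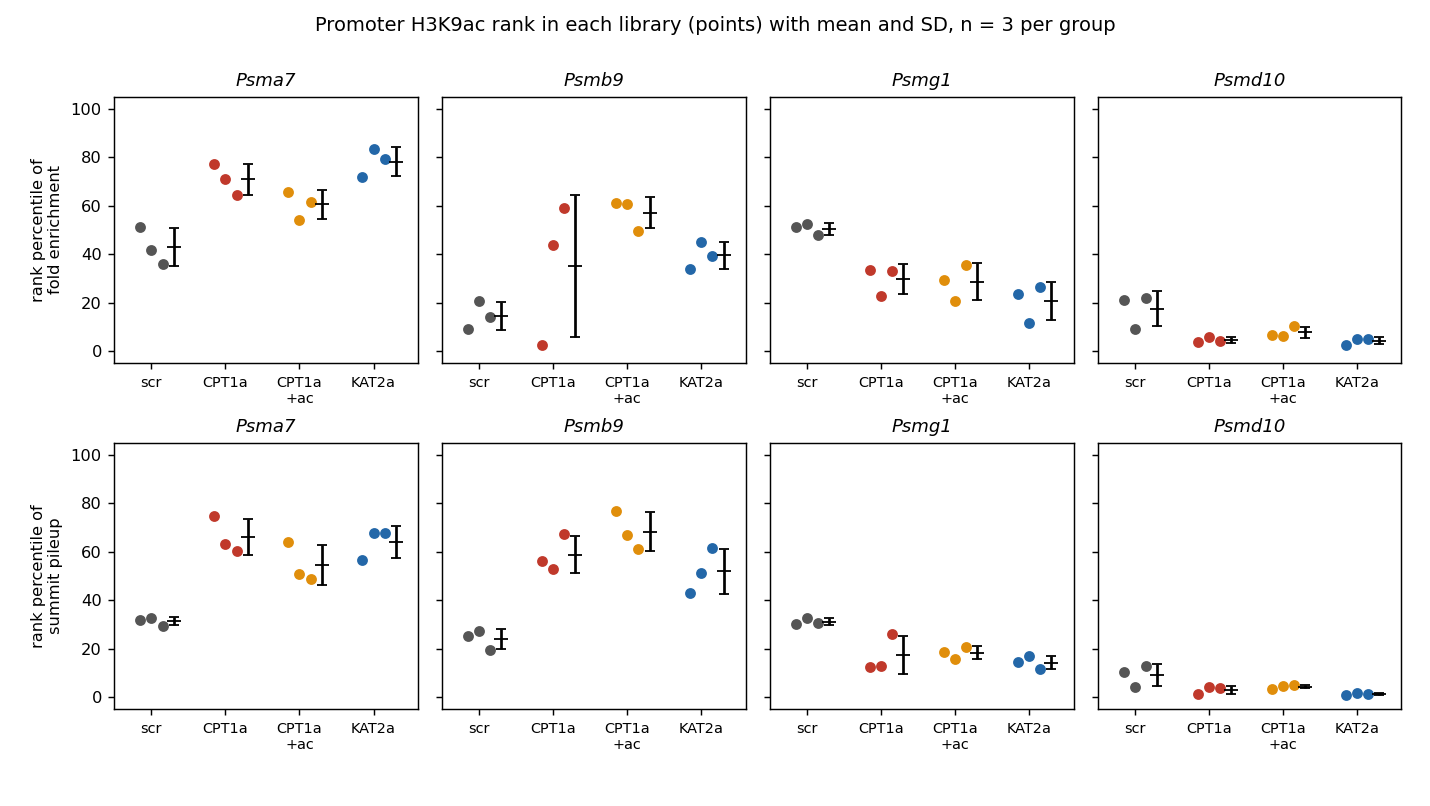
Rank percentile (0 to 100) of Psma7, Psmb9, Psmg1 and Psmd10 in each library, by fold enrichment (upper row) and by summit pileup (lower row), with mean and SD to the right of the points (n = 3 per group). By fold enrichment the scramble points of Psmg1 (47.8 to 52.4) lie above and those of Psma7 (35.7 to 51.1) below all other points, and Psmb9 spreads from 2.32 to 59.0 in CPT1a knockout.

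The acetate group was compared with CPT1a knockout, to ask whether acetate restores the mark, and with scramble. Against CPT1a knockout, limma called 0 of the 47 genes and 0.0464% of all genes, and 2 of the 47 had an unadjusted p under 0.05, as did 9.1% of all genes. The median difference of the 47 genes was 5.56 points, against -0.48 over all genes, and it was 2.90 without CPT1a knockout replicate 3. By rank of summit pileup, the alternative described below, 0 of 47 were called as well, where 0.779% of all genes were higher and 0.863% lower. Against scramble, 1 gene was higher and 0 were lower, where 1.66% and 3.9% of all genes were. This gene was Psmb9, an inducible catalytic subunit that lies in the MHC class II region next to Tap1, a peptide transporter gene.

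Psmb9 ranked at 9.14, 20.5 and 13.9 in scramble and at 61.0, 60.5 and 49.7 with acetate, a rise of 42.6 points (SE 11.5, adjusted p = 0.0445) from 14.5 ± 5.69 to 57.1 ± 6.43. It ranked at 34.0, 45.2 and 39.2 in KAT2a knockout and at 2.32, 43.8 and 59.0 in CPT1a knockout. The CPT1a knockout values therefore ran from below the scramble values to the acetate values. In CPT1a knockout replicate 1, the library at 2.32, the recovered local background at the summit was 5.87 times the depth, against 1.42 to 2.15 times in the other 11 libraries. Its summit pileup there, at 60.3 times the depth, lay within the 49.2 to 74.2 of the other knockout libraries, and scramble stood at 22.0, 27.8 and 22.1. The call of Psmb9 was kept in 2 of 12 fits without 1 library (0 genes were called in 9 of the fits and 2 without CPT1a knockout replicate 3), and the adjusted p was 0.0716 with the GC trend removed.

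The other inducible and activator genes did not pass the test on fold enrichment in any comparison. Psmb10, the inducible form of the trypsin-like subunit, ranked at 48.6, 43.0 and 40.0 in scramble, 15.3, 44.9 and 21.2 in CPT1a knockout, 34.3, 40.2 and 24.6 with acetate, and 24.7, 32.3 and 31.0 in KAT2a knockout. Psme1, a subunit of the interferon-inducible PA28 activator, ranked at 33.5, 28.6 and 17.3, at 12.5, 18.8 and 76.6, at 28.6, 74.6 and 73.9, and at 62.9, 67.0 and 69.9 in the same order. Psme2, its partner, ranked at 18.3, 84.5 and 67.9, at 59.2, 58.1 and 45.6, at 60.9, 80.0 and 68.1, and at 55.8, 58.7 and 74.7. For Psmb10 the KAT2a knockout values lay below the scramble values without overlap. For Psme1 the KAT2a knockout values lay above the scramble values without overlap (40.1 points, SE 15.8, adjusted p = 0.161), and for Psme2 only the acetate values lay apart, above those of CPT1a knockout (15.4 points, SE 14.2, adjusted p = 0.817).

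CPT1a knockout and KAT2a knockout were also compared with each other. On ranks of fold enrichment, 0 of the 47 genes and 0.0464% of all genes passed, with 3 of the 47 and 10.8% of all genes at an unadjusted p under 0.05. The 47 genes had a median difference of -2.15 points, CPT1a knockout minus KAT2a knockout, against 0.34 over all genes. The calls against scramble in only some of the groups are thus not shown to differ between them.

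Local background moved with some of these ranks. For Psmc5, a cap ATPase, the background was 7.22 times the depth in CPT1a knockout replicate 3, where its rank was 8.47, and 4.89 times in KAT2a knockout replicate 3, where its rank was 16.4, while it was 1.12 times in CPT1a knockout replicate 2, where the rank was 93.7. Summit pileup over depth was therefore recovered from the deposited values, ranked in the same way and tested in the same model, an alternative chosen after seeing the data. The median SD of a proteasome gene over the 12 libraries was 14.4 points for the rank of fold enrichment and 8.11 for the rank of pileup, and over all genes 14.0 and 8.57.

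By rank of pileup, 9 proteasome genes were higher and 15 lower in CPT1a knockout than in scramble. These shares stand against 23.3% and 23.5% of all genes, so calls were common throughout. The 9 higher genes were Psma7, Psmb5, Psmb8, Psmb9, Psmd11, Psme1, Psme3, Psme4 and Psmg2. Psmb9 ranked at 25.2, 27.4 and 19.4 in scramble and at 56.0, 53.1 and 67.5 in CPT1a knockout (34.9 points, SE 6.59, adjusted p = 0.000745). Psma7 ranked at 32.0, 32.5 and 29.4 and at 74.8, 63.4 and 60.4 (34.9 points, SE 6.25, adjusted p = 0.000516). Psmd11, a cap subunit, ranked at 54.2, 81.3 and 58.4 and at 96.3, 94.5 and 96.4 (31.1 points, SE 4.83, adjusted p = 0.000182). The 3 genes showed no overlap between the groups.

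On this scale Psmb8 and Psme1 also rose in CPT1a knockout and with acetate, as Psmb9 did. Psmb9 rose by 44.4 points with acetate (adjusted p = 0.000199) and by 28.0 in KAT2a knockout (adjusted p = 0.00462). Psmb8 ranked at 18.8, 16.2 and 13.7 in scramble, 38.8, 40.7 and 28.6 in CPT1a knockout, 38.6, 40.2 and 55.0 with acetate, and 16.2, 22.2 and 22.7 in KAT2a knockout. It rose by 19.8 points in CPT1a knockout (SE 4.79, adjusted p = 0.00401) and by 28.4 with acetate (SE 4.79, adjusted p = 0.000509), and it was not called in KAT2a knockout. Psme1 ranked at 34.9, 56.0 and 39.5, at 63.9, 57.9 and 85.8, at 65.0, 71.8 and 80.7, and at 58.7, 73.6 and 71.9 in the same order. It passed the test in CPT1a knockout (25.8 points, adjusted p = 0.0160), with acetate (29.0 points, adjusted p = 0.0105) and in KAT2a knockout (24.6 points, adjusted p = 0.0246). Psmb10 and Psme2 were not called.

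Among the 15 genes that were lower were 4 alpha genes (Psma1, Psma3, Psma5, Psma6), Psmb1, 3 ATPase genes (Psmc2, Psmc3, Psmc6), 4 other cap genes (Psmd2, Psmd4, Psmd12, Psmd13) and 3 assembly genes (Psmd5, Psmd10, Psmg1). Psmd5, a chaperone of the cap ATPases, ranked at 92.8, 90.9 and 92.7 in scramble and at 39.8, 66.01 and 68.6 in CPT1a knockout, and it fell by 34.0 points (SE 7.24, adjusted p = 0.00173). Psmd4, a receptor for ubiquitin, ranked at 86.5, 90.8 and 92.9 and at 68.7, 67.0 and 63.4, and it fell by 23.7 points (SE 4.14, adjusted p = 0.000428). The values of both genes in CPT1a knockout lay below all scramble values.

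The calls against scramble were fewer in the other groups, which share the 3 scramble libraries, both for the proteasome genes and over all genes. KAT2a knockout had 8 higher and 8 lower of 47, against 19.1% and 19.5% of all genes, and acetate had 10 higher and 9 lower, against 19.8% and 19.6%. The scramble libraries lay below all 9 others for 7 of the 47 genes (14.9%; Psma7, Psmb5, Psmb9, Psmd11, Psme1, Psme3, Psme4) and above them for 8 (17.0%; Psma3, Psma5, Psmb1, Psmd4, Psmd5, Psmd12, Psmd13, Psmg1), against 15.4% and 15.6% of all genes. The shares of the proteasome genes were near those of all genes. On this scale 2 genes differed between the knockouts, where 1.75% of all genes were higher and 1.55% lower in CPT1a knockout than in KAT2a knockout. They were Psmg2 and Psmd2, whose values are given with the closing observations.

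The width of the strongest promoter peak was compared as log2 of its length in base pairs. The median width of the 47 genes was 2860, 2150 and 2258 bp in scramble, 1859, 1898 and 1422 bp in CPT1a knockout, 2064, 1649 and 2182 bp with acetate, and 2177, 2236 and 1853 bp in KAT2a knockout. The CPT1a knockout medians lay below all scramble medians. The shallowest list had the lowest median and the deepest the highest, so width moved with calling depth, and values at matched depth are given below.

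**Figure D3:**
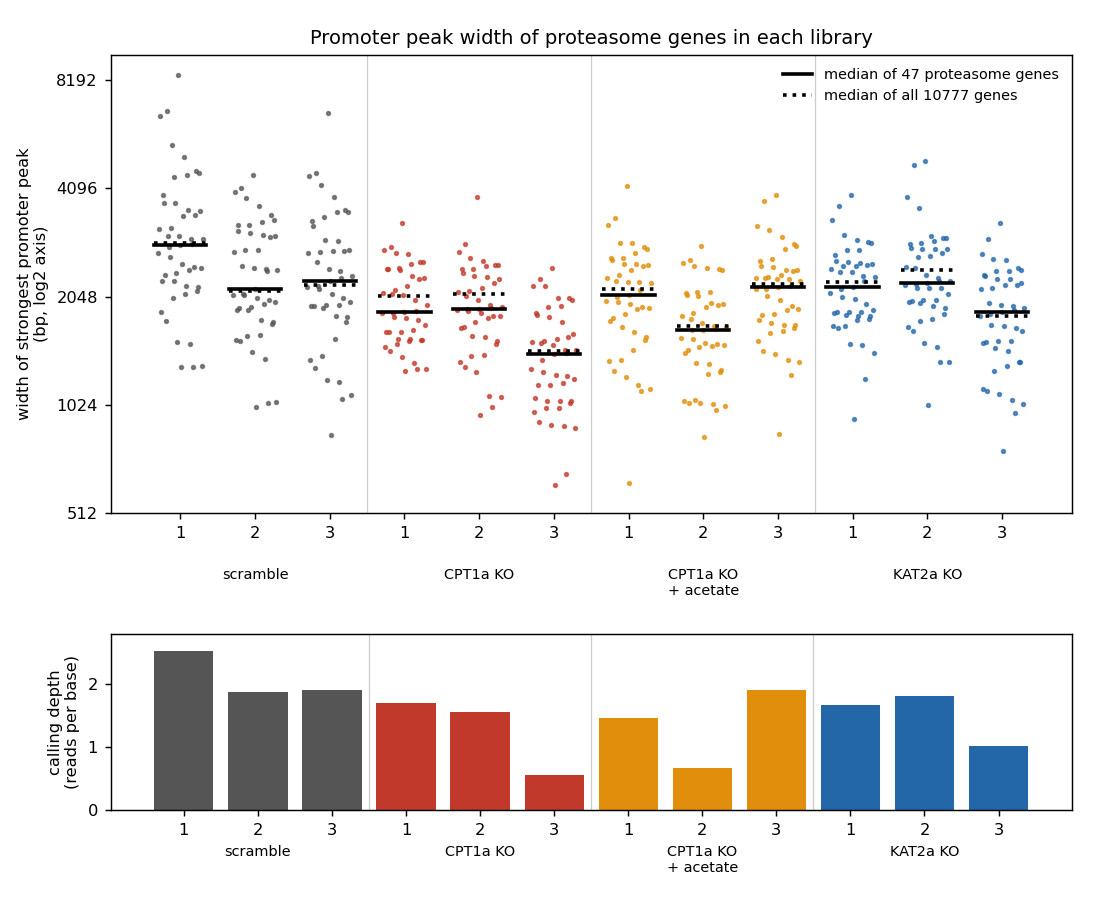
Width in base pairs (log2 axis) of the strongest promoter peak of each of the 47 genes (points) in each library, with the median of these genes (solid bar) and of all 10777 genes (dotted bar); the lower panel gives the calling depth in reads per base. The member medians run from 1422 bp in CPT1a knockout replicate 3 to 2860 bp in scramble replicate 1, the libraries with the lowest and the highest depth.

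In CPT1a knockout, 20 proteasome genes had a narrower peak than in scramble and 1 a wider peak, where 25.1% of all genes were narrower and 1.39% wider. The narrower genes were 3 of 7 alpha, 5 of 7 constitutive beta, 3 of 6 ATPase, 5 of 11 other cap, 3 of 7 assembly and 1 of 5 activator or regulator genes. The median difference was -0.52 log2 units over the 47 genes and -0.38 over all genes, so most of this difference was also found over all genes. For 27 of the 47 genes (57.4%) the CPT1a knockout widths lay below all scramble widths, against 39.6% of all genes. Subtracting the median log2 width of each library left 9 narrower and 1 wider of 47, where 7.27% of all genes were narrower and 7.44% wider, with a median difference of -0.14 over the 47 genes and -0.01 over all genes.

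The fit was repeated with the 8 libraries of calling depth 1.4 to 2.0, 2 per group, an alternative also chosen after seeing the data. It gave 13 narrower and 1 wider of 47, where 18% of all 10947 genes tested were narrower and 10% wider, and median differences of -0.32 and -0.09. Even in this set scramble had the higher depth, at 1.871 and 1.9 against 1.703 and 1.557. Leaving out CPT1a knockout replicate 3 gave 9 narrower and 1 wider, where 13.4% of all genes passed in either direction. Leaving out scramble replicate 1 gave 10 and 1, where 14.5% of all genes passed.

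**Figure D4:**
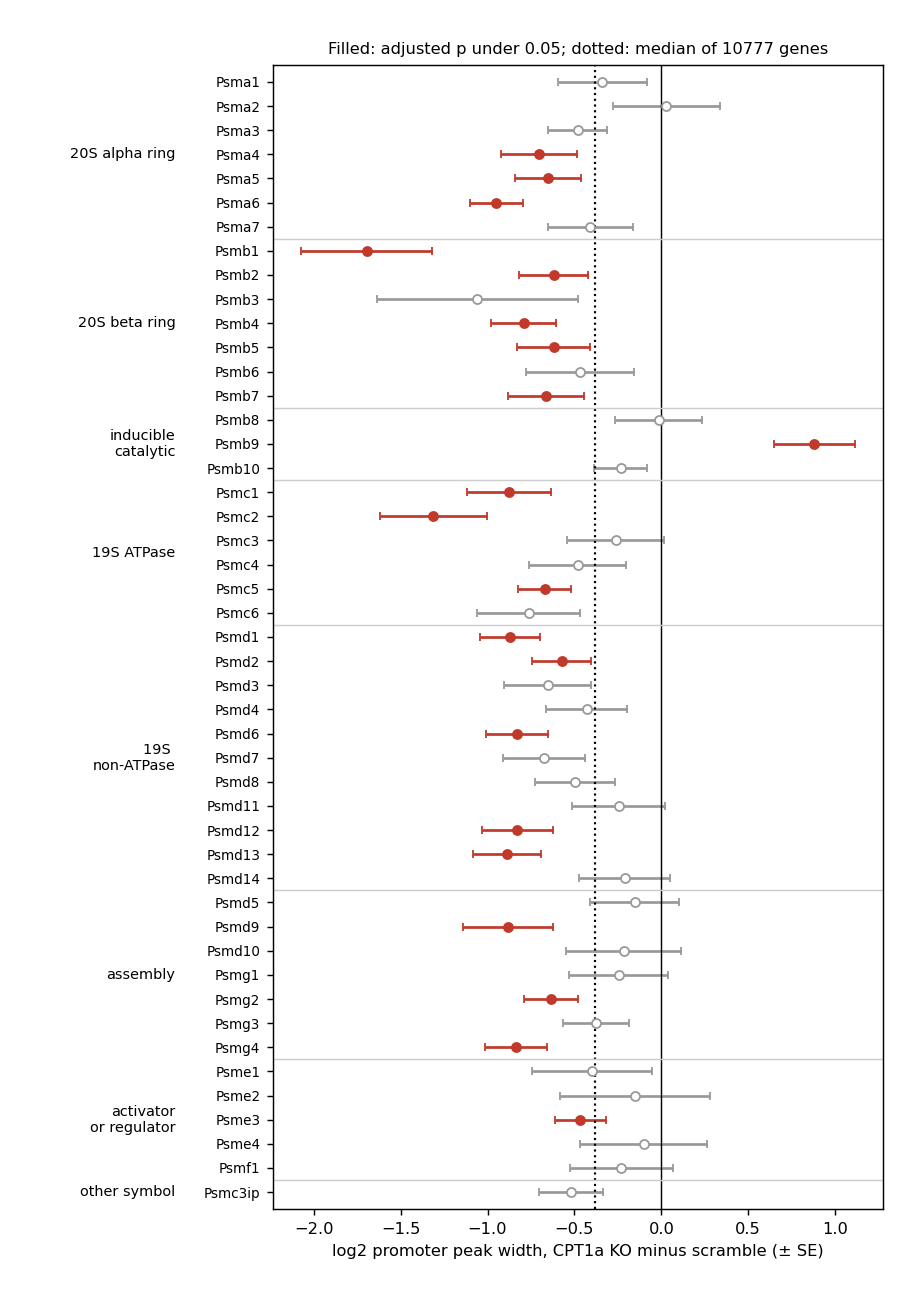
Difference in log2 promoter peak width, CPT1a knockout minus scramble, for each of the 47 genes (points, with SE), grouped by role; filled points have an adjusted p under 0.05 and the dotted line is the median of 10777 genes at -0.38. Psmb1 lies farthest to the left at -1.70, and Psmb9 is the filled point to the right of 0, at 0.88.

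Among the genes that passed the test, the largest losses of width were at Psmb1, Psmc2 and Psma6. Psmb3 had a difference of -1.06 and did not pass (limma, adjusted p = 0.192). Psmb1, a noncatalytic beta subunit, had a peak of 6743, 4104 and 6625 bp in scramble, 2457, 2388 and 919 bp in CPT1a knockout, 2629, 2113 and 2413 bp with acetate, and 2890, 4871 and 2293 bp in KAT2a knockout. Its log2 width was -1.70 in CPT1a knockout relative to scramble (SE 0.38, adjusted p = 0.0101), a ratio of 0.309. In scramble, a peak ran from -2373 to 4369 bp relative to the TSS in replicate 1 and from -2242 to 4382 bp in replicate 3, and in replicate 2 it was split between -244 and -171 bp. In each CPT1a knockout library the promoter held a pair of peaks with a gap between them, from 418 to 949 bp downstream in replicate 1, from 333 to 927 bp in replicate 2 and from -78 to 959 bp in replicate 3. Each acetate library and KAT2a knockout replicates 1 and 3 also held a pair, and KAT2a knockout replicate 2 held 1 peak. The strongest peak was thus 1 part of a split region in the libraries with a pair. Total promoter peak length was 6743, 5450 and 6625 bp in scramble and 3899, 3905 and 2735 bp in CPT1a knockout. The Tbp start site, 137 bp upstream of that of Psmb1, lies under these promoter peaks.

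Psmc2, a cap ATPase that shares its promoter with Dnajc2, had 6505, 4015 and 3558 bp in scramble, 1765, 2291 and 1504 bp in CPT1a knockout, 2819, 2433 and 2147 bp with acetate, and 2392, 4747 and 2168 bp in KAT2a knockout (-1.31 in CPT1a knockout, SE 0.31, adjusted p = 0.0123). The call did not hold without CPT1a knockout replicate 3 (adjusted p = 0.0505) or at matched depth (-0.91, adjusted p = 0.0838). The strongest Psmc2 peak was not in the same place in all libraries. Its summit lay at 2102, 2099 and 2080 bp from the nearest TSS in scramble and at -376, 1686 and -446 bp in CPT1a knockout. Total promoter peak length was 6505, 5480 and 5186 bp in scramble and 3882, 4280 and 1504 bp in CPT1a knockout. Psma6, an alpha subunit, had 4403, 4465 and 4529 bp in scramble, 2556, 2515 and 1922 bp in CPT1a knockout, 2781, 2489 and 2830 bp with acetate, and 3039, 2933 and 2430 bp in KAT2a knockout. Its 3 scramble peaks differed by little and were wider than in all 9 other libraries. It was narrower in CPT1a knockout (-0.95, SE 0.15, adjusted p = 0.00545), in KAT2a knockout (-0.68, adjusted p = 0.0383) and with acetate (-0.73, adjusted p = 0.0297), and at matched depth in CPT1a knockout as well (-0.83, adjusted p = 0.00477).

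Psmb9 changed in the other direction. Its strongest promoter peak measured 1307, 1036 and 1185 bp in scramble, 2199, 2238 and 2032 bp in CPT1a knockout, 2502, 1251 and 2306 bp with acetate, and 2398, 2207 and 2238 bp in KAT2a knockout. It was wider in CPT1a knockout (0.88, SE 0.23, adjusted p = 0.0193) and in KAT2a knockout (0.96, SE 0.23, adjusted p = 0.0460). The peak maps show that each scramble library, and replicate 2 of the acetate group, had 2 peaks where the others had 1 peak of about the same reach. Total promoter peak length differed little, at 2592, 1776 and 1710 bp in scramble and 2199, 2238 and 2032 bp in CPT1a knockout (0.12, adjusted p = 0.565). When peaks within 500 bp were merged the sign turned to -0.62 (adjusted p = 0.0191), so the direction depends on how split peaks are counted.

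**Figure D5:**
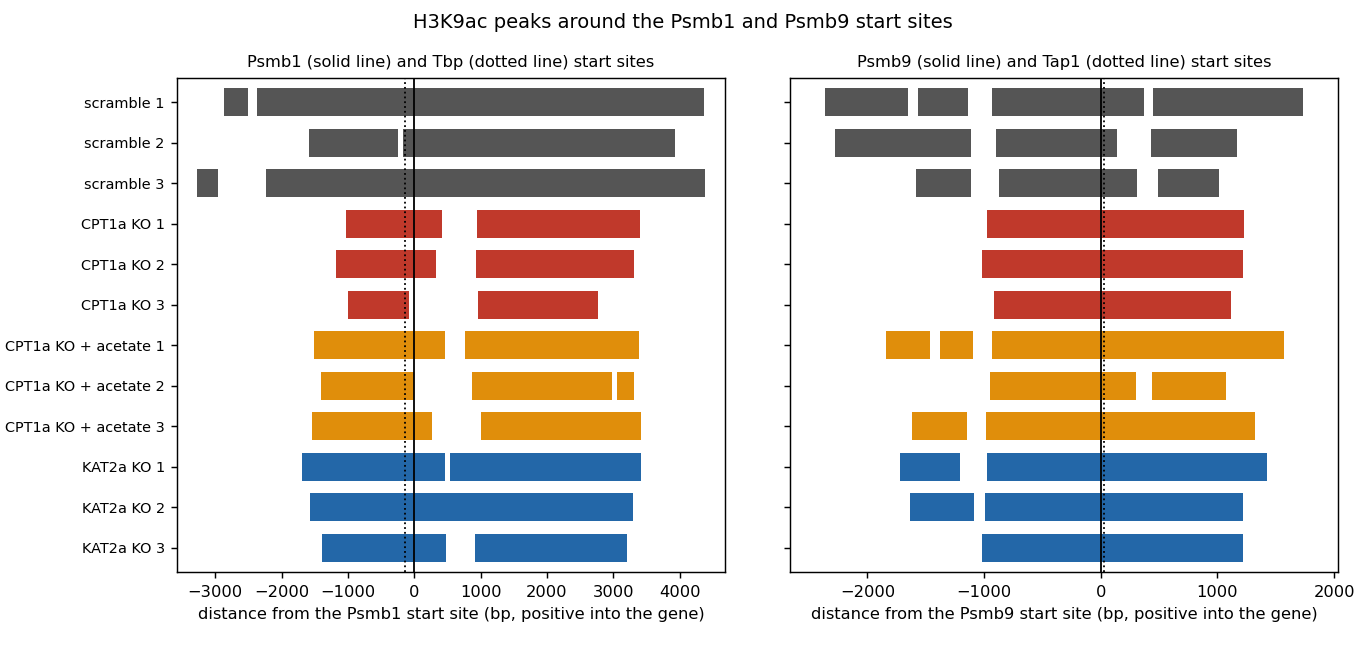
H3K9ac peaks (bars) in the 12 libraries (rows) around the start sites of Psmb1 and Psmb9, by distance in base pairs, positive into the gene; the dotted lines are the start sites of Tbp and Tap1. At Psmb1 the scramble bars are long, with a narrow gap in replicate 2. The bars there are split in all CPT1a knockout and acetate libraries and in KAT2a knockout replicates 1 and 3. At Psmb9 the scramble bars are split downstream of the start site while the CPT1a knockout bars are whole.

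Fewer widths passed the test in the other groups. In KAT2a knockout 1 gene was narrower (Psma6) and 1 wider (Psmb9), where 2.91% and 0.974% of all genes were, with a median difference of -0.36 against -0.16 over all genes. The acetate group had 2 narrower (Psma6 and Psmd1) and 0 wider than scramble, where 6.25% and 0.779% of all genes were, with a median of -0.44 against -0.26. Psmd1, a large subunit of the cap, measured 3939, 3073 and 3517 bp in scramble and 2255, 1959 and 2432 bp with acetate (-0.66, adjusted p = 0.0448). Psma6 kept its KAT2a knockout call in 3 of 12 fits without 1 library and Psmb9 in 2, and with acetate Psma6 kept its call in 6 and Psmd1 in 3. Without CPT1a knockout replicate 3 the counts were 6 in KAT2a knockout and 8 with acetate, where 9.29% and 15.5% of all genes passed. At matched depth 4 genes were narrower and 1 wider in each group, where 5.67% and 13.2% of all genes were in KAT2a knockout and 8.54% and 10.4% with acetate, and the median over all genes turned to 0.08 in KAT2a knockout while that of the 47 genes was -0.13. Centred on the library, these counts became 4 narrower and 1 wider in KAT2a knockout, where 5.93% and 6.08% of all genes were, and 3 and 1 with acetate, where 4.49% and 5.52% were.

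No width passed the test between acetate and CPT1a knockout, which does not show that they were alike. limma called 0 of 47 genes and 0% of all genes, with 1 of 47 and 2.26% of all genes at an unadjusted p under 0.05, and the median difference was 0.16 over the 47 genes and 0.13 over all genes. The acetate values lay above those of CPT1a knockout without overlap for Psmb2 (0.13), Psmc5 (0.20) and Psmc3ip (0.24), each with an adjusted p of 0.987. No width passed the test either for CPT1a knockout against KAT2a knockout, with 0 of 47 and 0% of all genes, 4 of 47 and 4.02% of all genes at an unadjusted p under 0.05, and medians of -0.25 and -0.21. In both comparisons 0 of 47 passed on centred widths (0.00928% and 0% of all genes) and at matched depth (0.21% and 0.0913%) too.

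The widths of 16 of the 47 genes (34.0%) were larger in the 3 scramble libraries than in all 9 others, against 22.8% of all genes, and for 0 they were smaller, against 1.23%. These genes came from all parts of the complex: Psma4, Psma5 and Psma6, Psmb4, Psmb5 and Psmb7, Psmc1 and Psmc5, Psmd1, Psmd2, Psmd6, Psmd12 and Psmd13, Psmg2 and Psmg4, and Psme3. The 3 scramble lists were also among the 4 deepest, and this count was not repeated at matched depth.

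Other genes of the ubiquitin and proteasome pathway were taken from a list of 30, of which 29 had an entry in the annotation under the symbols used (Paaf1 did not) and 28 had a promoter peak in all 12 libraries. Ubqln2, a shuttle factor, had one in 6. The list holds cap partners, shuttle factors, ubiquitin genes, activating enzymes and the factors Nfe2l1 and Nfe2l2, which are known to drive proteasome genes. On ranks of fold enrichment, 0 of 28 passed in CPT1a knockout or with acetate against scramble, and 1 was lower in KAT2a knockout. This was Adrm1, the ubiquitin receptor of the cap, which fell by 50.1 points (adjusted p = 0.0254), from 83.8, 73.7 and 73.1 in scramble to 27.2, 35.4 and 17.6. Its call held with the GC trend removed (adjusted p = 0.0149) and in 7 of 12 fits without 1 library, and not at matched depth (adjusted p = 0.151) or by rank of pileup (-3.82 points, adjusted p = 0.402). In CPT1a knockout 8 of 28 had a narrower promoter peak than in scramble and 0 a wider one, among them Pomp, the maturation factor of the core, with -0.55, Sem1, a small cap subunit, with -0.70, Ecpas with -0.68, Ubqln1 with -0.83, Ufd1 with -0.65, and the ubiquitin gene Rps27a with -0.62. The background of 25.1% of all genes applies here too. On centred widths, 1 of 28 was narrower and 1 wider.

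By rank of pileup, 6 of the 28 pathway genes were higher (21.4%) and 6 lower (21.4%) in CPT1a knockout, near the 23.3% and 23.5% of all genes. Nfe2l2 rose by 16.9 points (adjusted p = 5.63e-05) and Pomp by 19.4 (adjusted p = 0.000159). Nfe2l1 fell by 20.7 points (adjusted p = 0.00675). Both factors thus passed the test in opposite directions, as they did in KAT2a knockout (15.05 and -31.9) and with acetate (17.1 and -23.0), where the comparisons share the scramble libraries.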

How the data were processed

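H3K9ac ChIPmentation libraries of 4T1 spheroids (4 groups of 3) were analysed from their deposited peak lists; the 12 input libraries were not analysed here. The study's methods describe adapter trimming, alignment with BWA to mm10 and duplicate removal with Picard, whereas the submitters' processing notes name Bowtie2, SAMtools, FastQC, deepTools and MACS2 with builds mm10 and dm6. The antibody's catalogue number also differs between the labels and the methods. Peaks were called by the authors in each library separately, with settings not given in the sources used here, and the Drosophila spike-in was not used. In the deposited lists the authors give each peak's fold enrichment (a ratio over local background), its −log10 p-value and −log10 q-value, a score made from the latter, and its summit offset. The smallest deposited −log10 q was 2.00.

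A promoter peak overlapped by at least 1 bp the window within 1 kb of a TSS of GENCODE vM21. Ranks (0 to 100) of the best fold enrichment and log2 widths of the strongest promoter peak were fitted over all 4 groups with limma 3.58.1 (R 4.3.3, trended variance), over the 10777 genes that had such a peak in each of the 12 libraries, and p-values were adjusted over all genes by the Benjamini-Hochberg method. Calling depth, local background and summit pileup were recovered by inverting the MACS2 formulas, which assumes that MACS2 made the lists. The model was tested on simulated data. It recovered 3% of simulated rank shifts of 15 points and 20.5% of those of 30. For width it recovered 0% of shifts of 0.5 log2 units and 47.5% of those of 1. A gene that was not called may therefore still differ. Python 3.11.15, numpy 2.4.6, pandas 2.3.3 and scipy 1.17.1 were used.

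Values in every library are given for genes lacking a peak in at least 1 library, genes past the rank threshold (at most 8 per direction), the 3 highest and 3 lowest mean ranks, Psmb8, Psmb9, Psmb10, Psme1 and Psme2, and the 3 largest width changes past the threshold in each comparison. Genes named for pileup ranks or backgrounds were chosen after their values were seen. The members and lists were chosen with earlier results of these data known. Alternatives covered ranking, width measure, peak stringency, promoter window, calling depth, GC content, replicate block and each library left out. Values of a few genes of the marker and pathway lists are not reported here.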

Additional observations from a re-analysis of the deposited data

Results flagged for a closer look

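On the rank of summit pileup, an alternative chosen after seeing the data, 2 of the 47 proteasome genes differed between CPT1a knockout and KAT2a knockout. The difference was tested with limma, with adjustment over all genes. Of all genes, 1.75% were higher and 1.55% lower in CPT1a knockout, so calls were about as common among all genes. Psmg2, a chaperone of the alpha ring, ranked at 25.4, 22.2 and 18.8 in scramble, 35.6, 39.9 and 41.6 in CPT1a knockout, 25.4, 45.4 and 19.7 with acetate, and 15.1, 18.6 and 12.4 in KAT2a knockout. The difference of CPT1a knockout from KAT2a knockout was 23.7 points (SE 5.29, adjusted p = 0.0280), and all 3 CPT1a knockout values were higher.

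Psmd2, a large subunit of the cap, ranked at 83.4, 93.0 and 96.1 in scramble, 73.8, 82.5 and 80.2 in CPT1a knockout, 76.3, 73.2 and 77.0 with acetate, and 92.8, 91.3 and 92.9 in KAT2a knockout. The same difference was -13.5 points (SE 3.30, adjusted p = 0.0414), and all 3 CPT1a knockout values were lower. By rank of fold enrichment, 0 of 47 genes differed between these groups in the limma test, and 3 had an unadjusted p under 0.05, as did 10.8% of all genes.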

How the results depend on the processing

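The number of genes called in each library, 47, held in 4 of 5 alternatives and was 45 where the summit had to lie in the window. The counts of called ranks did not hold. Against scramble, 1 gene was called in CPT1a knockout, 3 in KAT2a knockout and 1 with acetate. In this order, the 8 libraries of matched depth gave 0, 0 and 0 (1.49%, 0.0639% and 0.0639% of all genes). Removal of the GC trend gave 0, 0 and 0 (7.94%, 3.11% and 3.93% of all genes). Ranking by −log10 p gave 13, 9 and 12 (31.9%, 21.6% and 23.7% of all genes), and by pileup 24, 16 and 19 (46.7%, 38.7% and 39.4%). At an equal calling depth of 0.55 the counts were 5 in CPT1a knockout and 6 with acetate (18.3% and 11.2% of all genes). Normal scores gave 1 in KAT2a knockout (3.83% of all genes). Between the knockouts (0), −log10 p gave 1 and pileup 2. Psmd10 turned to 2.49 in CPT1a knockout with the GC trend removed. For widths (21, 2 and 2), centring gave 10, 5 and 4 (14.7%, 12% and 10% of all genes). Merging peaks within 500 bp gave 43, 24 and 32 (72.9%, 44.6% and 49.5%), and total promoter peak length 42, 13 and 26 (62.7%, 22.1% and 33.6%). Matched depth gave 5 in KAT2a knockout and 5 with acetate (18.9% of all genes in each). Merging turned Psmb9 to -0.62 in CPT1a knockout and -0.29 in KAT2a knockout. Apart from the effect of fewer libraries, the cause was not tested. Without each library in turn, rank counts ranged from 0 to 1, 0 to 3 and 0 to 2, and width counts from 10 to 22, 0 to 6 and 0 to 8. The comparisons of acetate with CPT1a knockout and of the knockouts stayed at 0 in these fits.

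Replicate numbers did not pair the libraries: the median correlation of deviations was -0.0076 over 18 same-numbered pairs and 0.0042 over 36 others. With the replicate block, widths gave 0 calls in KAT2a knockout and 1 with acetate (0.418% and 2.58% of all genes). Ranks gave 1, 2 and 1 (8.77%, 3.14% and 4.22% of all genes).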
